A study of Mus musculus with 8 samples.

Results

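The genes described here were the liver X receptors, LXRβ (Nr1h2) and LXRα (Nr1h3), and 5 genes known as their targets: the cholesterol exporters Abca1 and Abcg1, the ubiquitin ligase gene Mylip, the phospholipid-remodelling enzyme gene Lpcat3 and the transcription factor gene Srebf1. They were chosen by name, with earlier results of these data known, and all 7 of 7 were found among the 53465 genes counted in each library. The libraries were RNA-seq of regulatory T cells (Tregs) made in culture from wild-type C57BL/6 mouse CD4+ T cells. Cells taken from spleen and lymph nodes were stimulated with plate-bound anti-CD3 at 5 µg/mL and soluble anti-CD28 at 0.5 µg/mL, together with TGF-β at 5 ng/mL, IL-2 at 100 U/mL and antibodies that block IL-4, IL-12 and IFN-γ (10 µg/mL). After 72 h, cultures were divided into cells given 50 µM BMS309403, a compound that blocks fatty acid-binding proteins, the intracellular carriers of fatty acids (n = 4), and cells without it (control, n = 4). The labels name no vehicle, do not say how long the inhibitor was present, and do not give the animals' age. They also leave unsaid whether each replicate is its own mouse or culture, and the spread behind every p-value may thus be technical.

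LXRs are nuclear receptors that bind oxysterols and desmosterol, sterols that accumulate when a cell holds much cholesterol. Each pairs with a retinoid X receptor (RXR) on a repeated DNA half-site, and the pair, once bound by a sterol, turns on genes that send cholesterol out of the cell, limit its uptake, and make and remodel fatty acids. In T cells, LXRβ is known as the main form, and LXR signalling has been tied to the sterol supply of dividing lymphocytes.

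All 5 target genes fell with BMS309403, by 1.34-fold to 2.11-fold, and neither receptor gene passed the test. None of the 7 was called higher by edgeR's quasi-likelihood test on treatment alone, by DESeq2, or at an unadjusted p under 0.05. With the replicate number as a block in the edgeR test, Nr1h2 was called higher (adjusted p = 0.0279). A gene was called when its adjusted p was under 0.05, and the call rate was high in this comparison: 36.8% of the 14443 genes tested were called, 18.1% lower and 18.7% higher. The 5 of 7 called lower stand beside that 18.1%. A fall of more than 1.5-fold with a call was seen for Mylip, Abca1 and Abcg1, against 4.19% of all tested genes. The median log2 fold change of the 7 genes was -0.53, and that of all tested genes 0.01. All 7 passed the filter on low counts. Since these are bulk samples, fewer cells that use a gene and less of its RNA per cell cannot be told apart.

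**Figure D1:**
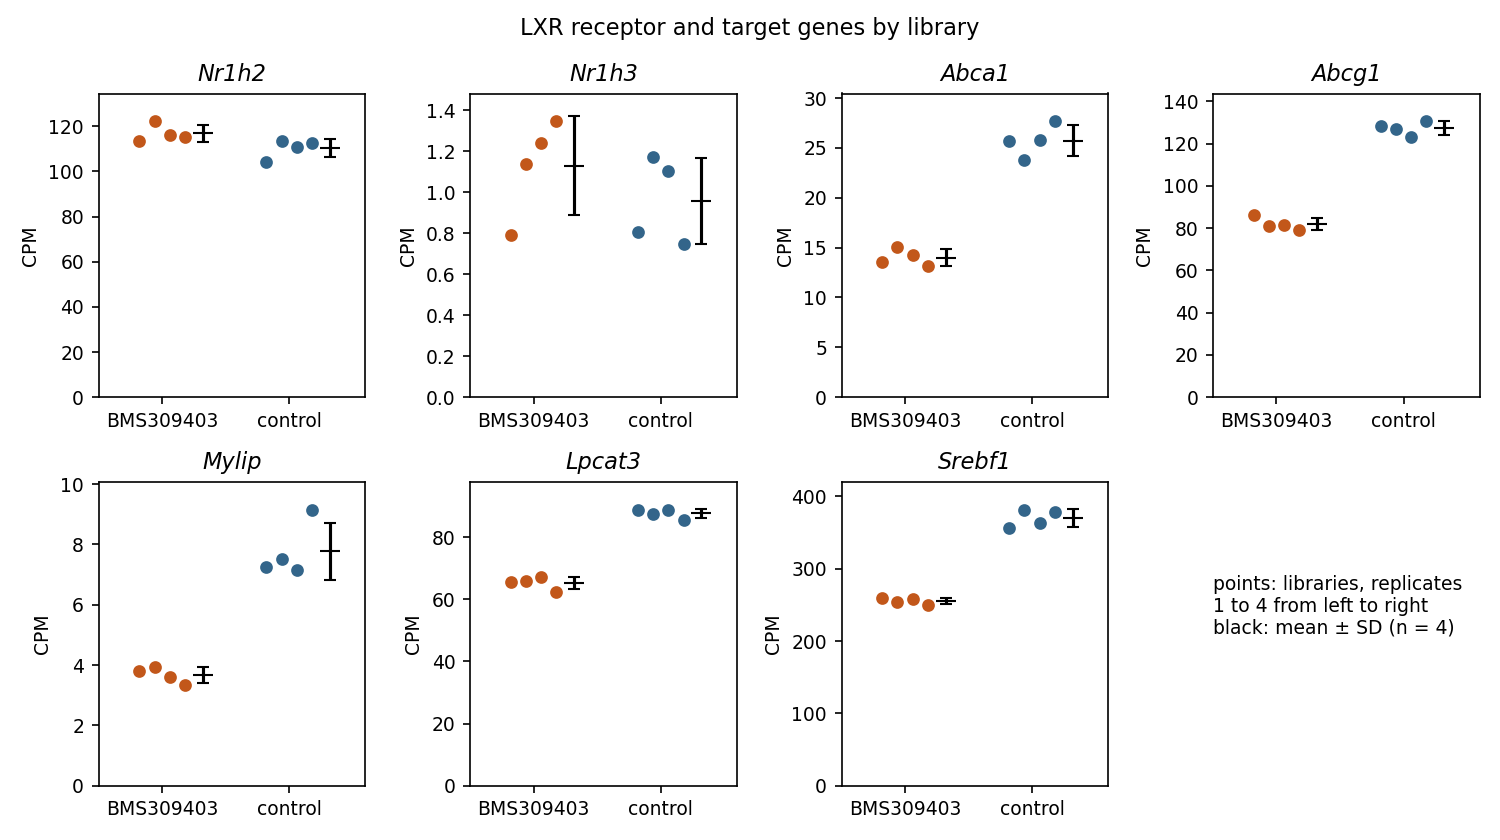
CPM (reads of a gene scaled to the effective size of its library) of the 7 genes in each library, BMS309403 left and control right, with mean ± SD (n = 4); each panel has its own axis from 0. For Abca1, Abcg1, Mylip, Lpcat3 and Srebf1 the 4 treated libraries all lie below the 4 control libraries, for Nr1h2 they lie just above them, and for Nr1h3 the groups overlap.

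Of 7 markers of T cells and Tregs, all were tested, and 4 rose and 1 fell with BMS309403. Foxp3, the lineage factor of Tregs, rose 1.31-fold and averaged 1247 ± 15.3 CPM with BMS309403 and 950 ± 55.6 CPM in control libraries, and Cd4 averaged 573 ± 15.8 CPM with BMS309403 and 598 ± 43.9 CPM in control libraries (SD, n = 4). Ikzf2, Tnfrsf18 and Il2ra rose 1.78-fold, 1.58-fold and 1.33-fold, while Cd3e, a chain of the T cell receptor complex, fell 1.38-fold, at 190.7 ± 11.3 CPM with BMS309403 and 262.6 ± 10.9 CPM in control libraries. These 7 markers, of which Il2ra was the most abundant, summed to 6138 to 6493 CPM per library with BMS309403 and 4873 to 5481 CPM in control libraries. Macrophages, which use LXR strongly, were looked for with 10 markers, of which 3 had enough reads to test, and these 10 summed to 3.36 to 6.23 CPM with BMS309403 and 4.72 to 6.51 CPM in control libraries. In that list Adgre1, the macrophage antigen F4/80, was called lower at 0.137 ± 0.049 CPM with BMS309403 and 0.565 ± 0.182 CPM in control libraries, while Cd68 was at 2.64 ± 0.278 CPM with BMS309403 and 2.62 ± 0.268 CPM in control libraries. The 5 dendritic cell markers summed to 8.17 to 11.5 CPM with BMS309403 and 3.93 to 4.42 CPM in control libraries, almost all of it Zbtb46, which rose 2.48-fold. For B cells (5 markers) the sums were 4.74 to 7.45 CPM with BMS309403 and 5.86 to 8.72 CPM in control libraries. For CD8 T and NK cells (4 markers) they were 10.2 to 14.9 CPM with BMS309403 and 9.91 to 14.3 CPM in control libraries, with Ncr1 at 0 in every library. What part such cells have in the values of the LXR genes was not tested. Library totals lay between 32.9 and 44.6 M counts.

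Neither receptor gene differed beyond the test's threshold between the groups. Nr1h2 (chr7:44549616-44553951, minus strand, GRCm38, protein-coding) was at 113.5, 122.3, 116.2 and 115.4 CPM in BMS309403 replicates 1 to 4, against 104.4, 113.3, 110.9 and 112.5 CPM in control replicates 1 to 4. The treated libraries all lay above the control libraries, by a margin that was narrow between the lowest treated and the highest control library. Such separation in either direction was seen for 33.8% of tested genes. The fitted difference was 1.06-fold higher, a log2 fold change of 0.08 with SE 0.042 and a 95% interval from -0.0069 to 0.17, and the adjusted p was 0.135. With the replicate number as a block, which called 52.4% of all tested genes, Nr1h2 was called higher at an adjusted p of 0.0279 with a log2 fold change of 0.08.

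Nr1h3 (chr2:91184061-91202834, minus strand, protein-coding) was read rarely at this depth, with 31, 49, 48 and 56 reads in BMS309403 replicates 1 to 4, against 26, 52, 37 and 30 reads in control replicates 1 to 4. Its level averaged 1.13 ± 0.242 CPM with BMS309403 and 0.956 ± 0.21 CPM in control libraries (SD, n = 4), and the groups overlapped. The log2 fold change was 0.23 with a 95% interval from -0.23 to 0.70 and an adjusted p of 0.416, an interval too wide to set a direction at this depth. Counted per kilobase of exon, Nr1h3 made up 0.918% to 1.53% of the summed level of both receptor genes with BMS309403 and 0.879% to 1.36% in control libraries. LXRβ RNA was thus by far the more abundant receptor RNA in each of the 8 libraries. The log2 ratio of Nr1h3 to Nr1h2 within a library averaged -6.71 ± 0.322 with BMS309403 and -6.85 ± 0.297 in control libraries, a difference of 0.148 that did not pass an exact two-sided permutation test (p = 0.514, adjusted p = 0.514 over the 2 ratios tested).

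Abca1 (chr4:53030787-53159895, minus strand, protein-coding) encodes the membrane transporter that hands cholesterol and phospholipid to lipid-poor apolipoprotein A-I. It was at 13.5, 15.03, 14.3 and 13.1 CPM in BMS309403 replicates 1 to 4, against 25.7, 23.8, 25.8 and 27.7 CPM in control replicates 1 to 4. The highest treated library stayed well under the lowest control library. The fall was 1.84-fold, a log2 fold change of -0.88 with SE 0.065 and a 95% interval from -1.02 to -0.74 (adjusted p = 1.07e-06).

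Srebf1 (chr11:60199089-60222581, minus strand, protein-coding) encodes SREBP-1, the transcription factor through which LXRs raise fatty acid synthesis. It was at 259.7, 254.6, 258.4 and 249.5 CPM in BMS309403 replicates 1 to 4, against 356.1, 381.7, 362.8 and 379.0 CPM in control replicates 1 to 4. The groups were wide apart, and the treated libraries lay closer to each other than the control libraries did. The fall was 1.45-fold, a log2 fold change of -0.53 with SE 0.039 and a 95% interval from -0.62 to -0.45 (adjusted p = 1.01e-06). Counts are per gene, so the forms SREBP-1a and SREBP-1c, which start at different promoters, are added together. Of the exon bases of Srebf1, 1.93% overlap Rai1 on the opposite strand and 1.17% the microRNA gene Mir6922, and reads there could be split or shared, as no strand setting for the counting is stated in the sources used here.

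Promoters of Abca1 and Srebf1 are known for a DNA element that an LXR and RXR pair binds, and both windows are shown because they hold it in nearly the same letters. The windows are RefSeq promoters of GRCm38.p6, 250 bases before to 50 after the start, on the minus strand, printed 5′ to 3′ along the gene. Capitals mark the element, which reads on the opposite strand of the gene. The Abca1 window is chr4:53159846-53160145 and the Srebf1 window, at the third of 3 starts in that table, is chr11:60210422-60210721.
Abca1: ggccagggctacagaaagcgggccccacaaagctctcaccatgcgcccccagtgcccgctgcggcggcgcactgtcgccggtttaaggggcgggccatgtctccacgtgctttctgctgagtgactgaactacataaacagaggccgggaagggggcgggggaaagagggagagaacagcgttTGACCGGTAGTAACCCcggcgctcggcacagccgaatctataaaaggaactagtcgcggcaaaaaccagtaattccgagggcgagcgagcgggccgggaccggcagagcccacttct
Srebf1: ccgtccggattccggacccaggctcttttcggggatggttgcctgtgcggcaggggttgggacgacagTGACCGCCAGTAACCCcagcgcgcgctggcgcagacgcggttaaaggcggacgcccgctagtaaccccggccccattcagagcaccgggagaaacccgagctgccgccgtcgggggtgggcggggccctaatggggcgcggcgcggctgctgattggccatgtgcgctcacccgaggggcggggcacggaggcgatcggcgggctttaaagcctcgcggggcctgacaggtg

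Read as the element is usually written, the same bases are as follows, with Fasn, the fatty acid synthase gene and another known LXR target, added from its window at chr11:120824498-120824797 (minus strand).
Abca1 element: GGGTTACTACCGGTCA
Srebf1 element: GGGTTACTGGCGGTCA
Fasn element: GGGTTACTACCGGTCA
The letters are identical in Abca1 and Fasn. Relative to the start, the element runs from base -67 to -52 in Abca1, from -182 to -167 in Srebf1 and from -225 to -210 in Fasn. The form GGGTTACTNNCGGTCA, searched on both strands, occurred in 3 of 32851 promoters (0.00913%), and these 3 were Abca1, Srebf1 and Fasn. The form was taken from what is known of these very promoters and was settled with them in view, so the match is a description and not independent evidence of binding. A looser search, for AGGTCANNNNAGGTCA with at most 3 of its 12 fixed letters different, matched 21.9% of all promoters, and among the promoters of the 7 genes it found only the same Abca1 and Srebf1 sites. The SREBP form TCACNCCAC, in 1.24% of promoters, was not found in the windows of these genes. Promoters were at hand for 6 of the 7 genes, 9 in all. Of the genes that hold the element, Abca1 and Srebf1 fell as above, and Fasn, singled out after its values were seen, was at 496.5 ± 36.9 CPM with BMS309403 and 578.3 ± 54.1 CPM in control libraries (SD, n = 4). That fall of 1.17-fold was called (adjusted p = 0.0281), but the call was lost without BMS309403 replicate 2, 3 or 4 (adjusted p = 0.0549, 0.0668 and 0.0846).

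Abcg1 (chr17:31057675-31117988, plus strand, protein-coding) encodes a half-transporter that moves cholesterol towards high-density lipoprotein. It was at 86.1, 81.2, 81.5 and 79.3 CPM in BMS309403 replicates 1 to 4, against 128.5, 126.9, 123.0 and 130.7 CPM in control replicates 1 to 4. No treated library came near the control range. The fall was 1.55-fold, a log2 fold change of -0.63 with SE 0.04 and a 95% interval from -0.72 to -0.55 (adjusted p = 2.71e-07). Both exporters thus fell, and the log2 ratio of Abca1 to Abcg1 within a library averaged -2.55 ± 0.103 with BMS309403 and -2.31 ± 0.079 in control libraries. The groups did not overlap on this ratio, and the difference of -0.245 had an exact two-sided permutation p of 0.0286, the smallest that 4 libraries against 4 allow, and an adjusted p of 0.0571. Abca1 had the larger fall in all 4 same-numbered pairs. Over the 2 ratios tested, the adjusted p missed 0.05.

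Mylip (chr13:45389742-45412022, plus strand, protein-coding) encodes IDOL, a ubiquitin ligase that marks lipoprotein receptors for breakdown and so limits cholesterol uptake. It was at 3.82, 3.94, 3.62 and 3.34 CPM in BMS309403 replicates 1 to 4, against 7.25, 7.51, 7.17 and 9.16 CPM in control replicates 1 to 4. All treated libraries were low, and control replicate 4 stood above the other control libraries. The fall of 2.11-fold was the largest point estimate among the 7 genes, with a log2 fold change of -1.08, SE 0.106 and a 95% interval from -1.31 to -0.85 (adjusted p = 1.05e-05). Without control replicate 4 the log2 fold change was -0.99 (adjusted p = 2.21e-05). Of receptors that IDOL acts on, Lrp8 rose 1.119-fold (adjusted p = 0.0339), and Vldlr was at 22.9 ± 4.95 CPM with BMS309403 and 21.6 ± 1.98 CPM in control libraries (adjusted p = 0.655). The call of Lrp8 was lost without BMS309403 replicate 1, 2 or 4 or control replicate 2 or 3 (adjusted p = 0.0625 to 0.113).

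Lpcat3 (chr6:124663027-124704418, plus strand, protein-coding) encodes the acyltransferase that places polyunsaturated fatty acids into membrane phospholipids. It was at 65.5, 66.0, 67.0 and 62.4 CPM in BMS309403 replicates 1 to 4, against 88.8, 87.4, 88.7 and 85.5 CPM in control replicates 1 to 4. Again all treated libraries lay below all control libraries. Lpcat3 had the smallest fall of the 5 targets, 1.34-fold, with a log2 fold change of -0.43, SE 0.039 and a 95% interval from -0.51 to -0.34 (adjusted p = 5.53e-06). Of its exon bases, 10.2% overlap Emg1 on the opposite strand, and Emg1 itself was called lower, with a log2 fold change of -0.21 (adjusted p = 0.0316) and 130.7 CPM with BMS309403 against 151.6 CPM in control libraries. The call of Emg1 was lost without BMS309403 replicate 2, 3 or 4 or control replicate 3 (adjusted p = 0.0508 to 0.0927). How much Emg1 reads add to the Lpcat3 counts was not tested.

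**Figure D2:**
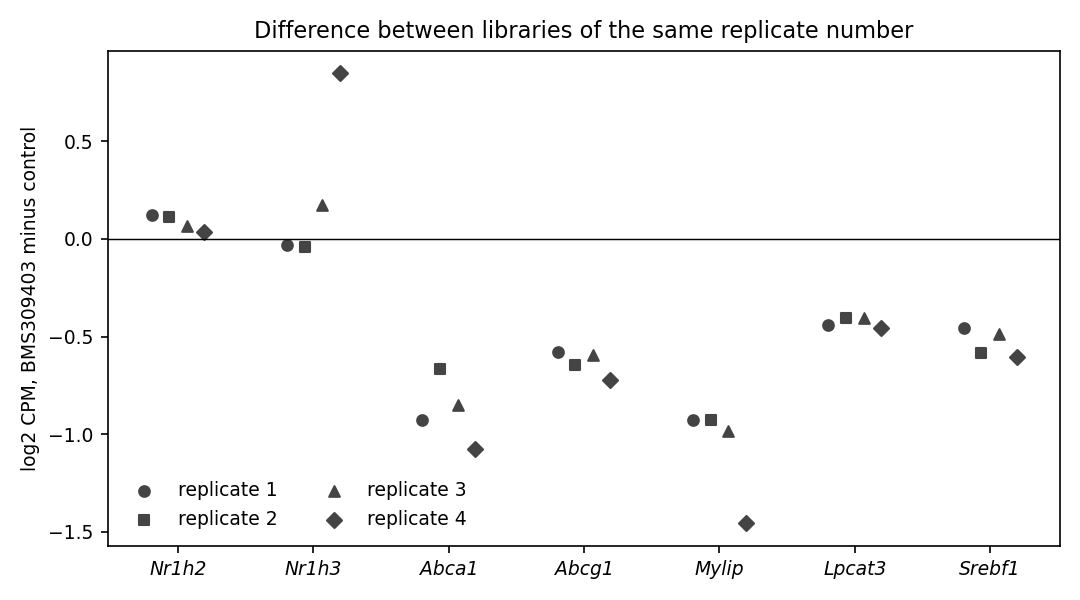
Difference in log2 CPM between the treated and the control library of each replicate number, for the 7 genes; each marker shape is 1 replicate number. The 5 targets lie below 0 in all 4 pairs, Nr1h2 lies above 0 in all 4, and Nr1h3 lies on both sides.

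Library by library, the plot of same-numbered differences shows how even each fall was. Lpcat3 varied least, with differences from -0.454 to -0.405 on the log2 scale, and Mylip most among the targets, from -1.455 to -0.926. Abca1 ranged from -1.077 to -0.664, Abcg1 from -0.721 to -0.578 and Srebf1 from -0.603 to -0.456. Replicate 4 had the largest fall in each of the 5 targets. Nr1h2 differed by 0.037 to 0.121, and Nr1h3 by -0.040 to 0.847, its largest value again in replicate 4.

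Of all tested genes, 1.32% had a lower log2 fold change than Mylip, 2.1% than Abca1, 4.38% than Abcg1, 6.02% than Srebf1 and 8.98% than Lpcat3. Of the genes called lower, 7.18% fell further than Mylip, 11.2% further than Abca1, 20.6% further than Abcg1, 26.3% further than Srebf1 and 35.8% further than Lpcat3. The Lpcat3 interval lay wholly above those of Abca1, Abcg1 and Mylip, and the Abca1 interval wholly below that of Abcg1, but differences in size between targets were tested only for Abca1 against Abcg1.

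**Figure D3:**
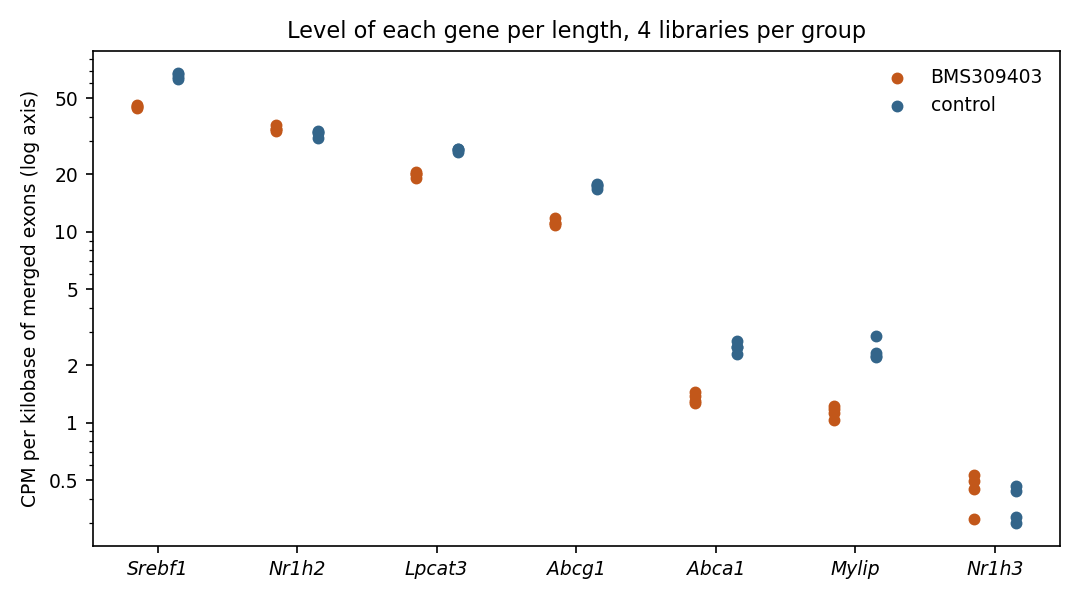
Level of each gene per library in CPM per kilobase of merged exons on a log axis, BMS309403 left of control, genes ordered by their control mean. Srebf1 and Nr1h2 lie highest, Abca1 and Mylip lie lower and share a range in control libraries, and Nr1h3 lies lowest.

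Per length, Srebf1 was the most abundant of the 7 RNAs, at a level of 45.4 ± 0.811 CPM per kilobase with BMS309403 and 65.7 ± 2.2 in control libraries (SD, n = 4, here and for the next genes). Nr1h2 came second, at 34.9 ± 1.14 CPM per kilobase with BMS309403 and 32.9 ± 1.21 in control libraries. Lpcat3 was at 19.96 ± 0.607 CPM per kilobase with BMS309403 and 26.8 ± 0.481 in control libraries. Srebf1, the LXRβ gene and Lpcat3 thus headed the order, ahead of both exporters. Abcg1 was at 11.2 ± 0.395 CPM per kilobase with BMS309403 and 17.4 ± 0.446 in control libraries. Abca1 was at 1.35 ± 0.0817 CPM per kilobase with BMS309403 and 2.48 ± 0.153 in control libraries. Mylip lay close to Abca1, at 1.14 ± 0.0811 CPM per kilobase with BMS309403 and 2.40 ± 0.289 in control libraries. The lowest was Nr1h3, at 0.449 ± 0.0962 CPM per kilobase with BMS309403 and 0.38 ± 0.0833 in control libraries. The order of means was the same in both groups. Neighbours in this order did not overlap between libraries, with the exception of Abca1 and Mylip in control libraries, and the order of these control means also turned with the length of the longest transcript in place of merged exons (2.51 CPM per kilobase for Abca1 and 2.54 for Mylip). With that length Srebf1 and Nr1h2 overlapped in BMS309403 libraries, at 58.05 to 60.41 CPM per kilobase for Srebf1 and 56.77 to 61.2 for Nr1h2, and so did Abca1 (1.279 to 1.465) and Mylip (1.09 to 1.287), so that the separation of these neighbours depends on the length used. Tregs of both groups thus held several times more RNA of the exporter Abcg1 per length than of Abca1.

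**Figure D4:**
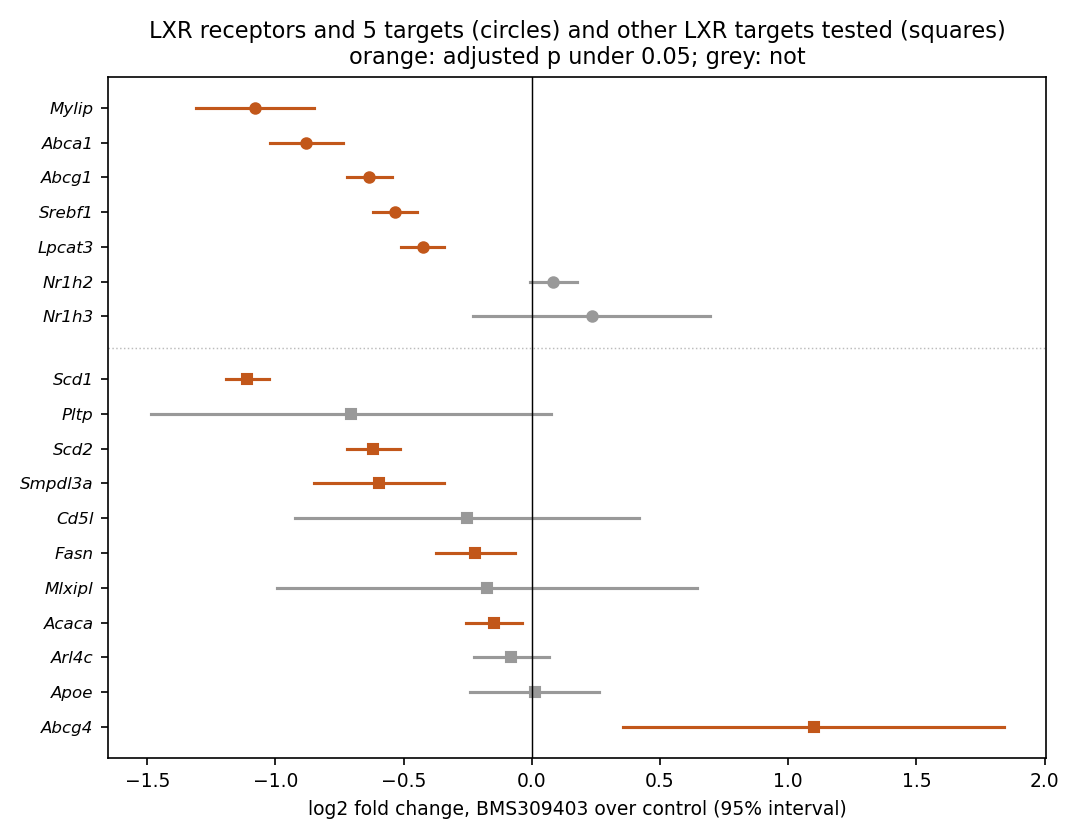
Log2 fold change with its 95% interval for the receptors and 5 targets (circles) and for the other known LXR targets that were tested (squares), orange where the adjusted p was under 0.05. Scd1, Scd2 and Smpdl3a lie on the side of the 5 targets, Apoe and Arl4c sit at or near 0, and Abcg4 lies on the opposite side with a wide interval.

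Among 17 other known LXR targets, 11 had enough reads to test, of which 5 fell and 1 rose, with a median log2 fold change of -0.22. Counts of this list and those below stand beside 18.1% of all tested genes called lower and 18.7% called higher. Scd1 and Scd2, the stearoyl-CoA desaturases that make monounsaturated fatty acids, fell 2.16-fold (adjusted p = 4.08e-09) and 1.53-fold (adjusted p = 1.22e-06). Scd1 was at 253.6, 251.7, 256.8 and 245.9 CPM in BMS309403 replicates 1 to 4, against 524.8, 545.4, 550.8 and 555.5 CPM in control replicates 1 to 4, so its groups were far apart and each was tight. Smpdl3a, a phosphodiesterase gene, fell 1.51-fold (adjusted p = 0.00183). The fall of Acaca, the acetyl-CoA carboxylase gene, was small at 1.11-fold (adjusted p = 0.0373), and the call was lost without any filter on low counts and without BMS309403 replicate 2, 3 or 4 or control replicate 1 or 2 (adjusted p = 0.0556 to 0.105). Abcg4, a relative of Abcg1, was called 2.14-fold higher (adjusted p = 0.0247) on few reads, with 21, 26, 19 and 32 in BMS309403 replicates 1 to 4 and 3, 9, 14 and 16 in control replicates 1 to 4. Without BMS309403 replicate 2 or 4, or control replicate 2, that call was lost (adjusted p = 0.0536, 0.0755 and 0.0825). Apoe, the apolipoprotein E gene, was at 5.01 ± 0.548 CPM with BMS309403 and 4.99 ± 0.608 CPM in control libraries (adjusted p = 0.946). Abcg8, Apoc1 and Cyp7a1 had no read in any library, and Abcg5, Lpl and Mertk had too few to test.

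Of 18 genes for RXR partners and LXR coregulators, 16 were tested, 7 rose and 3 fell, and the median log2 fold change was 0.08. With the replicate block, 8 were called higher and 4 lower. That block called 52.4% of all tested genes, a share that applies to its counts in the lists below too. Nrip1, a coregulator of nuclear receptors, fell 2.87-fold (adjusted p = 5.42e-09). It was at 46.8, 50.2, 46.1 and 48.4 CPM in BMS309403 replicates 1 to 4, against 123.6, 140.8, 136.3 and 148.7 CPM in control replicates 1 to 4, with a wide gap between the groups. Rxra, which encodes the partner RXRα, moved the other way and rose 1.75-fold (adjusted p = 6.36e-06), at 49.7, 44.5, 45.5 and 39.6 CPM in BMS309403 replicates 1 to 4, against 27.8, 26.6, 24.6 and 23.3 CPM in control replicates 1 to 4. Rxrb, the gene of the partner RXRβ, was more abundant and was called slightly lower, by 1.075-fold (adjusted p = 0.0466). It averaged 98.96 ± 2.05 CPM with BMS309403 and 106.4 ± 2.89 CPM in control libraries (SD, n = 4). Whether the call of Rxrb, close to the threshold, holds when a library is left out was not tested. The rise of the acetyltransferase gene Crebbp was 1.22-fold, and Tbl1xr1, of the corepressor complex, fell 1.20-fold.

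Genes that form or remove LXR's sterol ligands gave 3 falls and no rise among 6 tested of 10 listed in edgeR's quasi-likelihood test, with a median log2 fold change of -0.27. At an unadjusted p under 0.05, 2 were higher, and DESeq2 called 0 higher. Dhcr7, of the last steps of cholesterol synthesis, fell 1.84-fold. The fall of Cyp11a1, which cleaves the cholesterol side chain, was 1.24-fold. Ch25h, which makes 25-hydroxycholesterol, had too few reads to test, with 41 reads summed over the BMS309403 libraries and 14 over the control libraries.

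**Figure D5:**
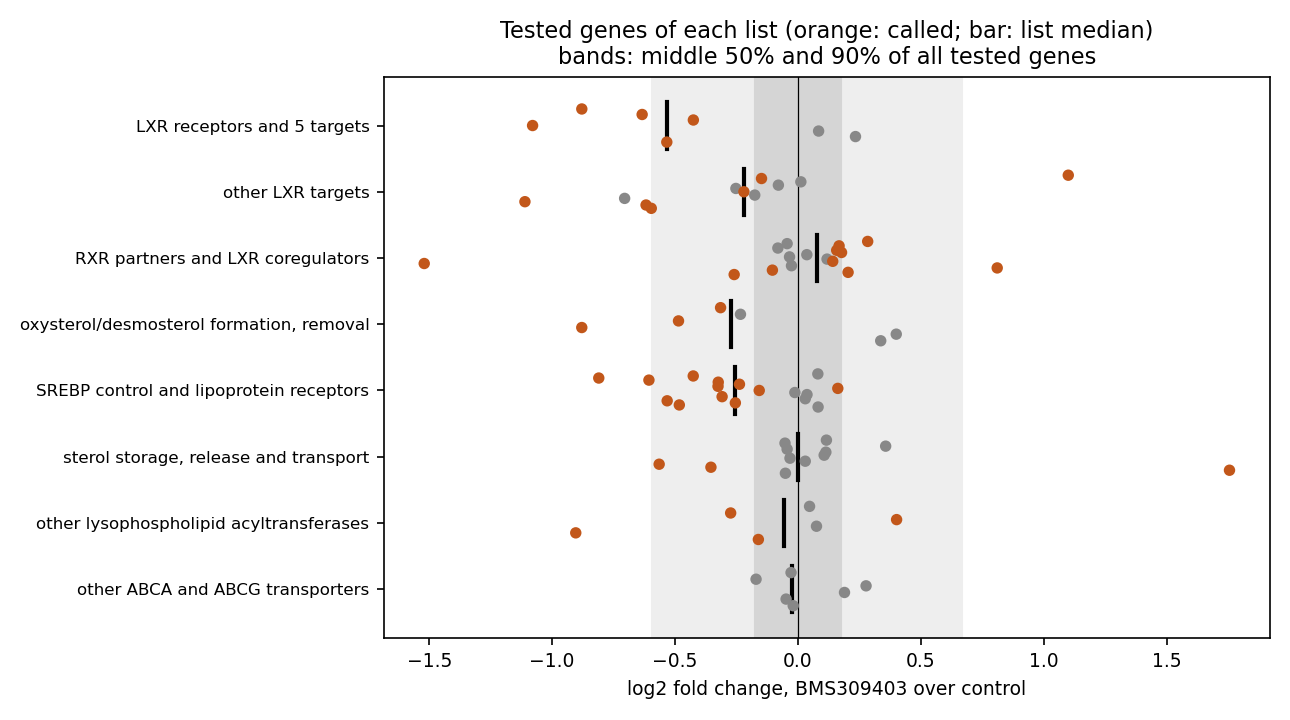
Log2 fold change of each tested gene of 8 lists, orange where called, with the list's median as a bar; the bands hold the middle 50% (-0.17 to 0.17) and 90% (-0.59 to 0.67) of all tested genes. The median of the receptors and 5 targets, -0.53, lies inside the outer band, and that of the other ABCA and ABCG transporters near 0.

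For the sterol-sensing SREBP pathway and the lipoprotein receptors, 17 of 18 listed genes were tested, 11 fell and 1 rose (2 with the replicate block), and the median log2 fold change was -0.25. Hmgcs1 of the mevalonate pathway fell 1.75-fold, Insig1, which holds SREBPs in the endoplasmic reticulum, 1.52-fold, Sqle, the squalene epoxidase gene, 1.45-fold and Stard4, a sterol carrier gene, 1.40-fold. Srebf2, the relative of Srebf1 that governs cholesterol synthesis, fell 1.19-fold (adjusted p = 0.000441), at 578.3 ± 16.6 CPM with BMS309403 and 689.9 ± 16.4 CPM in control libraries (SD, n = 4).

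Other sterol and phospholipid genes moved in both directions. In the list of sterol storage, release and transport, all 12 genes were tested, 2 fell, 1 rose (4 with the replicate block) and the median log2 fold change was -0.0016. Soat2, which esterifies cholesterol for storage, rose 3.38-fold (adjusted p = 3.14e-05), at 12.3, 22.1, 17.8 and 22.8 CPM in BMS309403 replicates 1 to 4, against 3.94, 5.73, 5.56 and 6.86 CPM in control replicates 1 to 4. The groups did not overlap. Its relative Soat1 fell 1.28-fold, and Scarb1, the high-density lipoprotein receptor gene, 1.48-fold. Among relatives of Lpcat3, 6 of 7 were tested, 3 fell and 1 rose: Mboat2 fell 1.87-fold, Lpcat4 1.21-fold and Mboat7 1.118-fold, and Lpgat1 rose 1.32-fold, with a median log2 fold change of -0.06.

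Relatives of the exporters gave no call in the comparison of all libraries. Of 11 other ABCA and ABCG transporters 6 were tested, and edgeR's quasi-likelihood test called 0 higher and 0 lower, as did DESeq2, with a median log2 fold change of -0.02. At an unadjusted p under 0.05, 1 was higher, Abca5, and 1 was lower, Abca3, and the replicate block called Abca7 higher (adjusted p = 9.96e-05) and Abca3 lower (adjusted p = 0.00343). Leaving out a library also gave a call for Abca3 without control replicate 1 (adjusted p = 0.00214) and for Abca7 without control replicate 4 (adjusted p = 0.0355). The 95% interval was from -0.15 to 0.10 for Abca2, from -0.05 to 0.42 for Abca7 and from -0.23 to 0.14 for Abcg2, on the log2 scale. Each of these 3 lies above the intervals of Abca1 and Abcg1, although the differences between these genes were not tested.

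Genes with the closest pattern over the 8 libraries were ranked for each target by the root mean square difference (RMS) of centred log2 CPM, among 9502 genes. For Abca1 they were Ube2f (RMS 0.055), Dhcr7 (0.0809) and Rab37 (0.082), and for Abcg1 they were Cep55 (0.041), Scd2 (0.043) and Ccnf (0.0447). For Mylip, Scd1 (0.108), Nrp1 (0.113) and Ube2f (0.122) came nearest. Near Lpcat3 were Smad3 (0.0213) and Trpc4ap (0.0238), and for Srebf1 the order was Itgb7 (0.0247), Kif20a (0.0291) and Trim59 (0.0313). All of these nearest genes were called lower, with log2 fold changes between -1.11 and -0.39. That follows from how they were chosen, by closeness over the same libraries to targets that fell, and is no separate result.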

How the data were processed

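RNA was measured in 8 libraries of in vitro polarized Tregs, 4 with BMS309403 and 4 control, grouped by title. Per the labels' protocols, libraries were made with a stranded mRNA kit and read on an Illumina instrument. The authors deposited raw counts, whole numbers of reads per Ensembl gene, 1 file per library. Per the submitters' processing notes, STAR, featureCounts, DESeq2 and deepTools were used with GRCm38; versions, roles, the strand setting and the treatment of multi-mapping reads are not given in the sources used here, so overlapping genes are uncertain.

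Symbols, coordinates and exon lengths came from GENCODE M21 (GRCm38), which named 53360 of 53465 IDs; the other 105 held 0.00631% of counts. Total counts averaged 40.41 ± 1.66 M with BMS309403 and 37.86 ± 5.51 M in control libraries (SD, n = 4). Counting noise alone did not account for the differences between replicates (chi-square per degree of freedom 3.08 to 24.2), so no library was taken for a repeat deposit of another, which does not show that they are separate cultures.

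The main test was edgeR's quasi-likelihood test (edgeR 4.0.16 in R 4.3.3) on genes kept by filterByExpr, with TMM scaling, treatment alone in the model and Benjamini-Hochberg adjustment over all 14443 tested genes. Adjusted p-values of genes are from it where no other test is named. The SE was derived from the F statistic. CPM are counts scaled to TMM library sizes. The 2 ratios were log2 ratios of raw counts within a library, with a pseudocount of 0.5 on each count. They were compared over all 70 arrangements by exact permutation, two-sided (scipy 1.17.1), adjusted over both. The edgeR step was tested on simulated data. Alternatives were RLE normalization, no filter, DESeq2 1.42.0, a replicate block, leaving out each library, a pseudocount of 2 and another gene length.

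Replicate numbers recur in both groups. Libraries sharing a number deviated together from their groups, with correlations across genes of 0.524, 0.214, 0.2 and 0.39 for numbers 1 to 4. BMS309403 replicate 2, however, matched control replicate 4 better than its own number (0.285). The alternative fit with a replicate block took libraries sharing a number as pairs, a planned choice that did not rest on these correlations. The labels say that cultures were divided but do not tie numbers to cultures.

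The 7 genes and the lists were chosen with earlier results of these data known. The naming rule took all 7, up to 4 called genes per list by size of change, genes not called only with their values, and for each called gene of the 7 the 3 nearest of 9502 tested genes averaging at least 5 CPM. Genes named outside this rule, such as Fasn, Acaca, Emg1, Lrp8, Srebf2 and Rxrb, were chosen after their values were seen. Some genes that the rule would name are not reported here. Promoter sequences are RefSeq's.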

Additional observations from a re-analysis of the deposited data

Results flagged for a closer look

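In groups of 4 libraries, a library was picked out when its gap to the nearest other library took up an unusually large share of the group's range. Of 128 groups examined, 9 had such a library, and chance gives about 1 in 20 groups.

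Mylip in control replicate 4 had a gap share of 0.83, at 9.16 CPM against 7.17 to 7.51 CPM in the other control libraries, and its fall was called with and without that library. Fasn in control replicate 1 had 0.861, at 658.8 CPM against 545.8 to 561.5 CPM. Apoe in control replicate 1 had 0.833, at 5.89 CPM against 4.57 to 4.79 CPM. Hmgcs1 in control replicate 1 had 0.931, at 483.4 CPM against 514.3 to 516.5 CPM. Rab37 in control replicate 1 had 0.858, at 33.2 CPM against 37.1 to 37.7 CPM. Il2ra in control replicate 1 had 0.831, at 3007 CPM against 2355 to 2465 CPM. Scarb1 in BMS309403 replicate 4 had 0.956, at 54.4 CPM against 59.7 to 60.0 CPM. Smad3 in BMS309403 replicate 4 had 0.922, at 28.2 CPM against 30.1 to 30.3 CPM. Tbl1xr1 in BMS309403 replicate 3 had 0.852, at 124.2 CPM against 111.5 to 113.4 CPM. Control replicate 1 holds 5 of these 9 values.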

How the results depend on the processing

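The falls of Abca1, Abcg1, Mylip, Lpcat3 and Srebf1 kept their direction and their call in all 60 comparisons (5 genes under 12 alternatives), with log2 fold changes from -0.92 to -0.84, -0.66 to -0.62, -1.12 to -0.99, -0.44 to -0.40 and -0.55 to -0.52 in that order of genes. Called genes overall numbered 5311, and 4113 to 5718 when a library was left out, 5272 with RLE, 5228 with no filter and 5280 with DESeq2. With the replicate block, which treats same-numbered libraries as pairs, 7573 genes were called and 6 of the 7 LXR genes in place of 5, the added gene being Nr1h2 (log2 fold change 0.08, adjusted p = 0.0279). Without the block its adjusted p was 0.135. The block changed no call of the other 6. Among 57 other genes compared, calls were lost in 21 of 684 comparisons, all of Abcg4, Fasn, Acaca, Lrp8 and Emg1 as given above, and 4 were gained, all of Abca3 and Abca7. Rxrb was not among these 57 genes. With no filter Acaca had an adjusted p of 0.0598. The sign turned only for 5 genes that were not called, with log2 fold changes, when a library was left out, from -0.0414 to 0.176 for Vldlr, -0.0332 to 0.0961 for Apoe, -0.0652 to 0.02 for Abca2, -0.0897 to 0.0216 for Abcg2 and -0.0435 to 0.0757 for Cd68. Differences of both ratios kept their direction. Their adjusted p was 0.0571 to 0.25 for Abca1 to Abcg1 and 0.229 to 0.914 for Nr1h3 to Nr1h2, which says nothing on stability, since 3 libraries against 4 cannot give an exact p below 0.0571, or 4 pairs below 0.125. With the longest transcript as length, levels of Nr1h2, Nr1h3, Abcg1, Lpcat3 and Srebf1 per kilobase were higher by more than the spread between replicates. Nr1h3 and Abcg4 rest on few reads, and 6 other LXR targets had too few to test.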
